A study of Mus musculus with 4 samples.

Results

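The genes of DNA replication and of the step from G1 into S phase were followed in single epithelial cells of the mouse distal small intestine. They are 31 genes of the 32285 genes in the deposited count matrices: the helicase subunits Mcm2 to Mcm7 with Mcm10, the loading factors Cdc6 and Cdt1, Cdc45, Gins2, Pola1, Prim1, Pole, Pcna, Rfc2, Rfc4, Rpa2, Fen1, Lig1, Rrm1, Rrm2, Tyms, Dut, Slbp, Chaf1b, Uhrf1, Hells, Ccne1, Ccne2 and E2f1. The set is a list of gene names made without a rule on level or on difference between groups, although earlier results of these data were known. All 31 were found in both pools of cells.

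All 8 mice carried Lgr5-EGFP-IRES-CreERT2 and Rosa26-mTmG, and all were given 4-OH-tamoxifen, so clones and control cells came from the same animals. The recombinase is made from the locus of Lgr5, a receptor of crypt base stem cells, and the mTmG reporter gives GFP to cells in which it acted and to their progeny. The groups were clones at 48 h (GFP-high cells of mice 1 to 4), clones at 72 h (GFP-high cells of mice 5 to 8), control epithelium at 48 h and control epithelium at 72 h (GFP-negative cells of the same mice). The age of the mice is not given in the labels. The EGFP of the Lgr5 allele fluoresces like the reporter's GFP, so the gate could also sort cells by Lgr5. Villi were scraped off before the crypts were taken, and cells were stained for EpCAM, CD31 and CD45, which mark epithelium, endothelium and leukocytes.

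Counts of unique molecular identifiers (UMIs) were used from 1993 cells with 1 hashtag. The groups held 110 cells (clones, 48 h), 631 cells (clones, 72 h), 586 cells (control, 48 h) and 666 cells (control, 72 h), each from 4 mice. The sums of UMIs per mouse were 77566 to 298850 in clones at 48 h, 813389 to 6370450 in clones at 72 h, 1471640 to 5042193 in control cells at 48 h and 1950263 to 5186012 in control cells at 72 h. The 48 h clones were thus the thinnest group, with 4, 15, 83 and 8 cells in mice 1 to 4. The 83 cells of mouse 3 stood apart: their median was 1841 UMIs, and the leading hashtag took a median of 48.6% of their hashtag counts. Of 5452 barcodes 1 occurred in both pools, and 0 of the cells used did. Epcam had a UMI in 96.8% ± 3.7 of cells in clones at 48 h and in over 99% of cells in the other groups, while 4 of 6 endothelial and 4 of 7 stromal markers were detected, with summed levels of up to 16.7 and 29.1 UMIs per 1000000 in a sum. The markers with no UMI were Cdh5, Kdr, Col1a1, Col1a2 and Col3a1.

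Before S phase, the origin recognition complex, Cdc6 and Cdt1 load the Mcm2 to Mcm7 ring onto replication origins. Cdc45 and the GINS complex then turn that ring into a working helicase, and primase, polymerases, clamp and ligase copy both strands. Transcription of most of these genes is driven by E2F factors once cyclin-dependent kinases have released them from retinoblastoma proteins. In the intestinal crypt, stem cells and transit-amplifying cells divide, whereas Paneth, goblet, tuft and enteroendocrine cells and enterocytes have mostly left the cell cycle.

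Because the group shares this regulator, its promoters were searched for the E2F letters TTTCCCGC, TTTCGCGC, TTTGCCGC and TTTGGCGC on both strands. RefSeq windows on GRCm38.p6, from 250 bases before to 50 bases after the gene start, were given for 26 of the 31 genes (none for Mcm4, Gins2, Rfc2, Pole and Ccne2). A gene was counted if any of its windows held a match, and the 26 genes had 31 windows. The letters occurred in 10 of these 26 genes (38.5%), against 704 of all 27025 genes with a window (2.6%). They occurred in 20 of 47 genes (42.6%) of a list of other replication and S phase genes. In a list of mitosis genes they occurred in 1 of 28 (3.57%). The letters TTTGAA, known as the CHR element of G2 and M phase genes, lay in 3 of the 26 genes (11.5%). They lay in 21 of the 28 mitosis genes (75%), against 20.2% of all genes. A match is a description of the letters and no shown binding site. The 4 stretches below lie upstream of the RefSeq start and overlap no exon annotated in GENCODE M21, in which the gene of Cdc6 starts earlier, so that its stretch lies in an intron. They run 5′ to 3′ on the gene's own strand and have the E2F letters in capitals. Capitals that run on hold matches on both strands that overlap, as in Mcm5 and in the first block of Mcm6.
Mcm6, chr1:128359725-128359835, minus strand: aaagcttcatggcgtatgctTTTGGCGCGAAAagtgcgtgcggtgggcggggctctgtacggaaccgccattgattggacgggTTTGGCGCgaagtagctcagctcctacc
Mcm5, chr8:75109336-75109387, plus strand: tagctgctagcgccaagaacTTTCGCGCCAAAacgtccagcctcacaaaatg
Cdc6, chr11:98907993-98908040, plus strand: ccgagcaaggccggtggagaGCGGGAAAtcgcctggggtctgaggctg
Pola1, chrX:93632266-93632313, minus strand: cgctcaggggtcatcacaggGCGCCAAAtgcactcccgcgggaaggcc

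Cells were grouped into classes by clustering without the 31 genes, and classes were named from marker lists. The highest level lay in a class with none of these names. A cluster of 141 cells led by Slfn9 and Dtl, and here called by those genes, had 3493 ± 259 UPM of the 31 genes together, UPM being UMIs per 1000000 UMIs of a sum of cells (SD, n = 5 mouse and gate sums of at least 10 cells, range 3184 to 3855). The 31 genes were kept out of the clustering, but the cluster's leading gene by fold was Hells, and 6 of its 10 leading genes were among the 31, so it is itself marked by them. The name uses its first 2 leading genes outside the set. Dtl encodes a substrate receptor of the ubiquitin ligase that destroys Cdt1 during S phase. In this cluster 54.0% of cells had a UMI of Lgr5 and 74.0% one of Mki67. The level was 2028 ± 528 UPM (n = 9) in an unnamed cluster of 163 cells led by Ifitm3 and Apex1. Dividing cells, 398 in number and defined by mitosis markers, had 1789 ± 477 UPM (n = 12), and 51 dividing secretory cells had 2190 ± 190 UPM (n = 2). Stem cells had 948 ± 351 UPM (n = 11, range 433 to 1600), and secretory progenitors had 906 ± 395 UPM (n = 9, range 233 to 1655).

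Differentiated cells were lower. The level was 286 ± 243 UPM in goblet cells (n = 12), of which the clones of mouse 3 gave 1050 and the mean without mouse 3 was 217.8. It was 240 ± 88 UPM in Paneth cells (n = 3), 203 ± 17.5 UPM in enterocytes (n = 5) and 517 ± 141 UPM in tuft cells (n = 2). A cluster led by Gsdmc4 and Gsdmc3 had 417 ± 35 UPM (n = 5). No sum of enteroendocrine cells reached 10 cells. Ranges of stem cells and secretory progenitors overlapped each other, and those of goblet cells, apart from mouse 3, lay below every stem cell sum. The classes are themselves made from genes that go with the cell cycle, so these levels carry no test. The border between the Slfn9-Dtl cluster and stem cells depended on the clustering: at a coarser Leiden resolution of 0.6, 137 of the 141 cells joined the stem cells, whose level was then 1908 UPM.

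**Figure D1:**
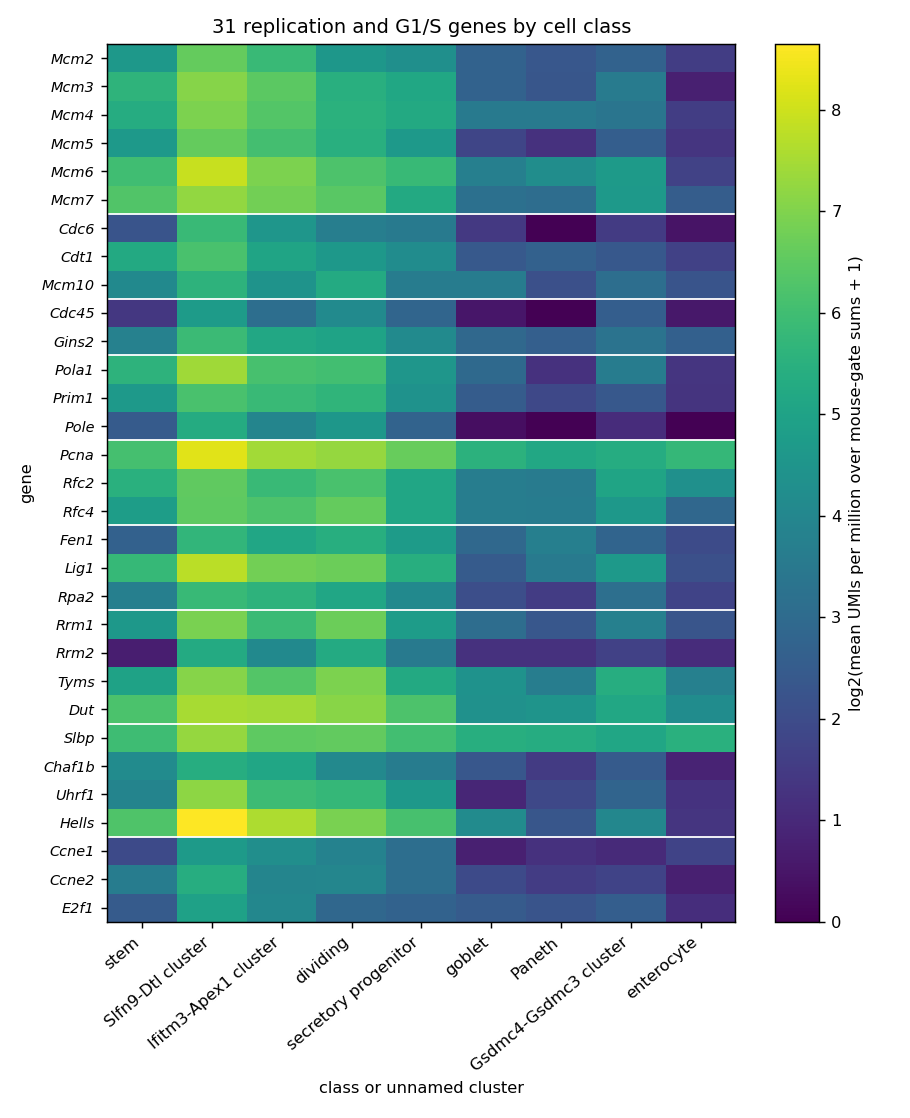
Level of each of the 31 genes (rows) in 9 classes of cells (columns), as log2 of the mean UPM (UMIs per 1000000 UMIs) plus 1 over mouse and gate sums of at least 10 cells. 30 of the 31 genes have their highest level in the Slfn9-Dtl cluster, and the other is Rfc4, highest in dividing cells. Dividing cells are shown as 1 class. Their cluster led by histone genes exceeds the Slfn9-Dtl cluster for Mcm10, Tyms, Rrm1, Rrm2, Cdc45, Rfc2, Rfc4 and Fen1.

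Among the 9 classes with at least 3 sums, 30 of the 31 genes had their highest level in the Slfn9-Dtl cluster. The exception was Rfc4, a clamp loader subunit, with 95.4 UPM in dividing cells and 89.5 in the Slfn9-Dtl cluster. With dividing secretory cells counted as well, which had only 2 sums, 8 of the 31 genes were highest there (Mcm10, Tyms, Rrm1, Rrm2, Cdc45, Rfc4, Fen1 and Dut) and 23 in the Slfn9-Dtl cluster. How far the cluster stood above dividing cells differed between genes. Of the origin loading group, Cdc6 was at 56.6 UPM in the Slfn9-Dtl cluster, 11.9 in dividing cells and 3.77 in stem cells. Cdt1, which Cdc6 brings to origins with the ring, was at 70.0 UPM in the cluster, 23.2 in dividing cells and 36.9 in stem cells. The ring subunits Mcm2, at 95.8 UPM in the cluster and 22.6 in dividing cells, and Mcm6, at 242 and 74.1 UPM in these classes, stood 4.23 and 3.27 times higher in the cluster. Over the 6 subunits Mcm2 to Mcm7 this ratio ran from 1.77 (Mcm7) to 4.23 (Mcm2), and for Mcm10 it was 1.23. E2f1, the transcription factor, was at 29.6 UPM in the cluster and 6.40 in dividing cells.

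For the 4 genes of deoxynucleotide supply (Rrm1, Rrm2, Tyms and Dut) the ratio of the cluster to dividing cells ran from 1.01 (Rrm2) to 1.34 (Dut). It was 1.22 for Fen1, 1.96 for Pcna and 2.09 for Lig1. Rrm2, the regulated subunit of ribonucleotide reductase, was at 37.9 ± 21.0 UPM in the Slfn9-Dtl cluster, 37.6 ± 22.1 in dividing cells and 0.66 ± 0.97 in stem cells. Tyms, thymidylate synthase, was at 133 UPM in the cluster and 122 in dividing cells. Rrm1, the large reductase subunit, was at 119 UPM in the cluster and 103 in dividing cells. Fen1, the flap endonuclease of Okazaki fragments, was at 51.3 UPM in the cluster and 42.03 in dividing cells, against 5.38 in stem cells. The highest ratios were 4.75 for Cdc6 and 4.62 for E2f1.

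Dividing cells were made of 2 clusters that differed in the same genes. The first, of 214 cells and led by replication-dependent histone genes, had 2323 ± 522 UPM of the 31 genes (n = 8). The second, of 184 cells and led by the anaphase and cyclin B genes Cdc20 and Ccnb2, had 1066 ± 311 UPM (n = 7). In the histone cluster Rrm2 reached 62.9, Tyms 176, Rrm1 134, Rfc4 124 and Fen1 55.0 UPM, each above its level in the Slfn9-Dtl cluster. Mcm10 (50.2 against 47.4 UPM), Cdc45 (26.0 against 25.9) and Rfc2 (91.9 against 91.7) lay above it by little. In contrast, Mcm2 was at 27.0, Mcm6 at 80.5, Hells at 137, Cdc6 at 17.3 and Cdt1 at 25.0 UPM in the histone cluster, each below the Slfn9-Dtl level. Hells, a chromatin remodeller needed for DNA methylation, was at 400 UPM in the Slfn9-Dtl cluster. The summed level of 32 mitosis genes was 11190 UPM in the histone cluster, 7193 in the Cdc20 cluster and 1953 in the Slfn9-Dtl cluster.

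In the secretory line, 31 of the 31 genes were higher in secretory progenitors than in goblet cells by their means. Pcna, the sliding clamp, was at 98.2 UPM in secretory progenitors, 45.7 in goblet cells, 35.8 in Paneth cells and 53.1 in enterocytes. Slbp, which binds the histone mRNA stem loop, was at 63.8 UPM in secretory progenitors and at 41.98 in goblet cells, 39.99 in Paneth cells and 43.7 in enterocytes. Cdc6 and Cdc45 had no UMI in the Paneth sums, and Pole, the catalytic subunit of polymerase epsilon, had none in the enterocyte sums. Of the 31 genes, 17 had their lowest level in enterocytes, 10 in Paneth cells and 2 in goblet cells. Rrm2 was lowest in stem cells (0.66 UPM) and Slbp in the Gsdmc4-Gsdmc3 cluster (33.4 UPM). Pcna has the annotated pseudogenes Pcna-ps1 and Pcna-ps2 and Tyms has Tyms-ps, so reads of both genes may be shared with a copy.

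Depth differed between cells, so each cell was thinned to 2000 UMIs, which left out 50 of 110 clone cells at 48 h, 18 of 631 at 72 h, 29 of 586 control cells at 48 h and 8 of 666 at 72 h. A Slfn9-Dtl cell then had a median of 7 UMIs of the 31 genes, and 73.8% of these cells had at least 5. A dividing cell had a median of 3 and a stem cell a median of 1, with at least 5 UMIs in 29.6% and 11.7% of cells. At least 1 UMI was found in 75.6% of stem cells and 57.1% of secretory progenitors. Goblet cells, Paneth cells and enterocytes had at least 1 UMI in 37.7%, 38.1% and 37.7% of cells and at least 5 in 0% of cells. Free RNA in the droplets was not measured, and shares at or below those in these mostly post-mitotic cells are not read as expression.

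**Figure D2:**
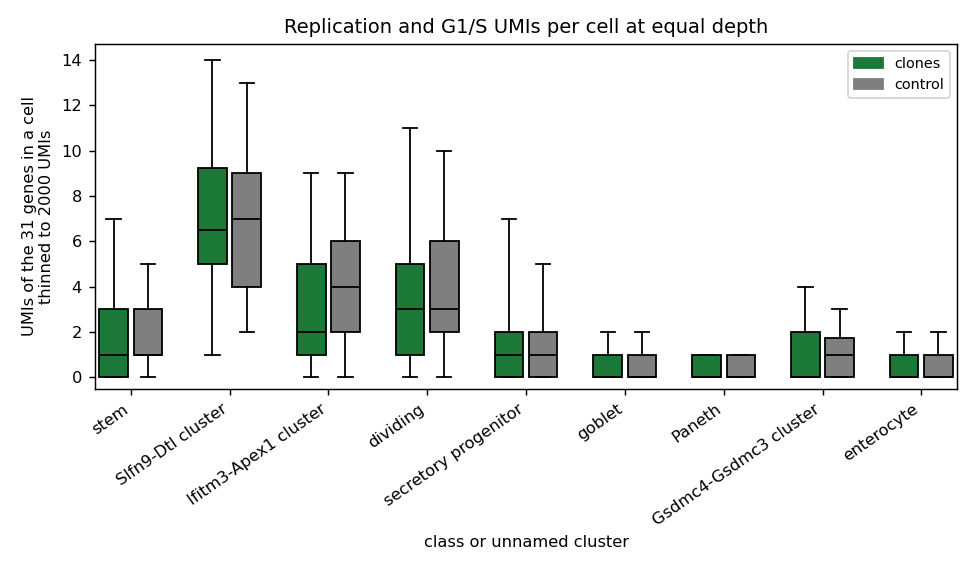
UMIs of the 31 genes per cell after thinning every cell to 2000 UMIs, by class, both times together, with clones left of control cells. Boxes show quartiles and medians and whiskers the 5th to 95th percentiles over cells, so the spread is between cells and not between mice. Slfn9-Dtl cells sit highest, with a median of 7 over both gates, against 3 in dividing and 1 in stem cells.

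At equal depth clones and control cells were set side by side within classes. Dividing cells averaged 19.3 UMIs of the 31 genes per 10000 UMIs in clones and 19.4 in control cells, and Slfn9-Dtl cells averaged 35.9 in clones and 34.7 in control cells. Stem cells averaged 9.94 in clones and 8.96 in control cells, and secretory progenitors 10.7 in clones and 7.5 in control cells. Cells of the Ifitm3-Apex1 cluster were lower in clones, with 16.8 in 63 clone cells and 19.75 in 81 control cells. Dividing secretory cells averaged 10.8 in 12 clone cells and 17.2 in 39 control cells, and tuft cells 6.54 in 13 clone cells and 2.86 in 35 control cells. These are means over cells of both times and all mice, so the gates differ in time and mouse as well, and they carry no test. Before thinning, secretory progenitors numbered 1 clone cell at 48 h and 53 at 72 h, against 88 and 63 control cells. Their unthinned sums were 1078 UPM in clones and 583 in control cells of mouse 5, but 1109 and 1655 in mouse 8.

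The next question was whether the labelled descendants of Lgr5 cells and the unlabelled epithelium of the same mouse differed in these genes. Summed over all cells, the 31 genes took more of the UMIs in clones than in control cells in 7 of 8 mice. In the 48 h mice the level was 1753, 1954, 1456 and 987 UPM in the clones of mice 1 to 4, against 1329, 915, 1457 and 851 in their control cells. In the 72 h mice it was 1133, 772, 1480 and 1344 UPM in the clones of mice 5 to 8, against 954, 696, 1170 and 835 in their control cells. Clones averaged 1537 ± 421 UPM and control cells 1138 ± 300 at 48 h, and clones averaged 1182 ± 308.3 and control cells 914 ± 201 at 72 h (SD, n = 4 each). The ranges of clones and control cells overlapped at both times. The ratio within a mouse was 2.14 in mouse 2 and 1.61 in mouse 8, between 1.11 and 1.32 in mice 1, 4, 5, 6 and 7, and 0.999 in mouse 3. Such sums do not tell apart more cells of a type and more RNA per cell.

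In each mouse the clones and control cells were sequenced in different pools, so each comparison within a mouse is also one between pools. The clones were higher in 4 of the 4 mice whose clones were in pool 2 and in 3 of the 4 whose clones were in pool 1. Within pool 1 the summed level was 1317 ± 228 UPM in clones and 973.5 ± 263 in control cells, and within pool 2 it was 1403 ± 547 in clones and 1078 ± 296 in control cells (SD, n = 4 each, from different mice). At 48 h the level in pool 1 was 1221 UPM in clones and 1122 in control cells, and in pool 2 it was 1854 in clones and 1154 in control cells (n = 2 each). At 72 h the level in pool 1 was 1412 UPM in clones and 825 in control cells, and in pool 2 it was 952.5 in clones and 1003 in control cells (n = 2 each).

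**Figure D3:**
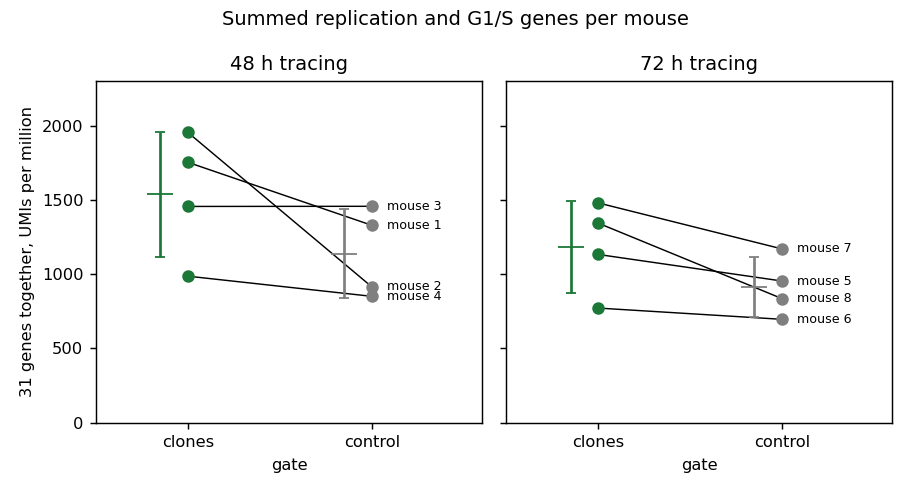
Summed level of the 31 genes (UMIs per 1000000 UMIs) in the clones (left) and control cells (right) of each mouse, at 48 h and at 72 h, with lines joining a mouse and the mean ± SD of each group beside the points. Clones lie above control cells in 7 of 8 mice, by most in mouse 2 and mouse 8.

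The gates also differed in the cells they held. The summed stem marker list (14 genes) was at 6241 ± 2594 UPM in clones and 3071 ± 320 in control cells at 48 h, and at 5919 ± 1534 in clones and 3265 ± 839 in control cells at 72 h, higher in the clones of 8 of 8 mice. The goblet list ran from 503 to 44660 UPM in clones and 29240 to 46500 in control cells at 48 h, and from 17760 to 44270 in clones and 27690 to 66550 in control cells at 72 h. Goblet markers and enterocyte markers were each higher in clones in 1 of 8 mice. Of the immune list, detected in 11 of 11 genes, the sum was 1845 ± 803 UPM in clones and 1254 ± 363 in control cells at 48 h, and 1023 ± 259 in clones and 845 ± 276 in control cells at 72 h. The part of these markers in the clone-control difference of the 31 genes was not tested.

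Gene by gene, counts were tested across all 10606 genes that passed the filter on low counts, among them 31 of the 31 genes. Values by gene are CPM, counts scaled to 1000000 after TMM normalization. A gene is called here at an adjusted p under 0.05 (Benjamini-Hochberg) in edgeR's quasi-likelihood test with pool as covariate. Of the 31 genes 0 were called in clones against control at 48 h (0% of all genes called), 0 at 72 h (0%) and 0 over both times (0.00943%). At an unadjusted p under 0.05, 6, 7 and 13 of the 31 genes were higher in clones at 48 h, at 72 h and over both times, and 0 were lower. The background of genes that were higher by that rule was 4.27% at 48 h, 4.01% at 72 h and 6.58% over both times. The median log2 difference, clones minus control, was 0.44 at 48 h, 0.39 at 72 h and 0.44 over both times for the 31 genes, and -0.07, 0.01 and -0.04 for all genes tested. At 72 h 31 of the 31 differences were positive, against 51.4% of all genes tested, and at 48 h 24 were, against 43.9%. Fitted within 1 pool, the median over both times was 0.47 in pool 1 and 0.32 in pool 2, and 0 of the 31 genes were called in either. At 48 h it was 0.18 in pool 1 and 0.65 in pool 2, and at 72 h 0.72 in pool 1 and -0.03 in pool 2, where 14 of the 31 differences were positive. Without mouse 2 the median at 48 h was 0.07, without mouse 3 it was 0.63, and without mouse 8 the median at 72 h was 0.21.

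Clone and control cells of a mouse came from 1 animal, so a second fit held the mouse as a block. It called 6 of the 31 genes higher in clones over both times and 0 lower (167 of 10606 genes, or 1.57%, were called higher, and 495, or 4.67%, either way). At 48 h alone it called 0 of the 31 (0.886% of genes called either way) and at 72 h alone 0 (2% of genes). The 6 genes were Prim1, Mcm7, Mcm5, Hells, Mcm4 and Mcm3. Without mouse 2 this count was 0, without mouse 8 it was 1 (Prim1), and without mouse 3, whose clones stood apart, it was 10. DESeq2 without the block called 3 of the 31, Prim1, Mcm7 and Mcm4 (2.21% of genes called either way). Higher in the clones of 8 of 8 mice were 3 of the 31 genes, Mcm2, Mcm5 and Mcm7, against 1.34% of all genes, and in at least 7 of 8 mice 9 of the 31, against 6.85%.

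**Figure D4:**
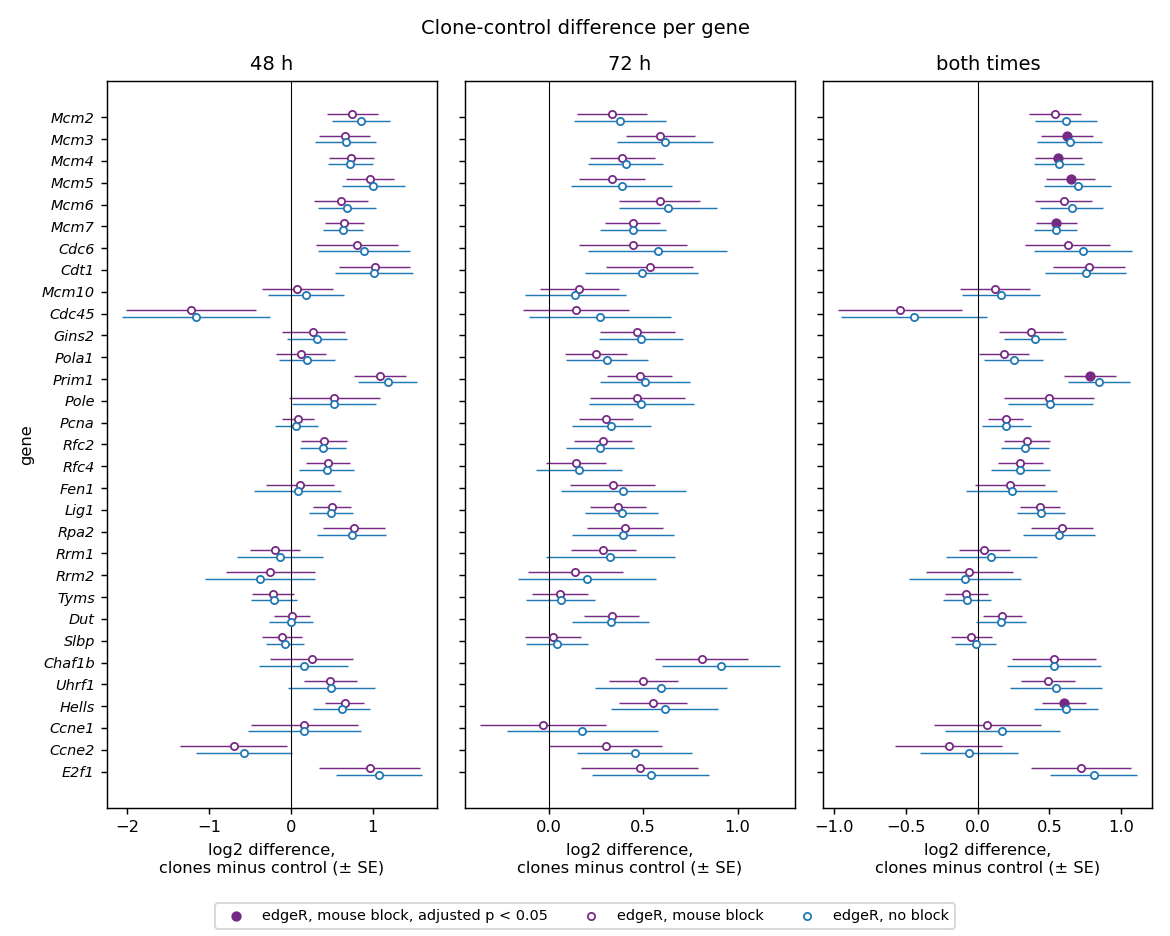
Log2 difference of clones minus control cells for each of the 31 genes, with its standard error, at 48 h, at 72 h and over both times, in the edgeR fits with and without the mouse as a block. The horizontal scales of the panels differ. Points lie mostly right of 0, with Prim1 highest and Cdc45 lowest over both times.

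Prim1 encodes the catalytic subunit of primase, which starts each new strand. Prim1 stood at 22.6, 78.7, 44.2 and 23.7 CPM in the clones of mice 1 to 4, against 23.1, 19.4, 28.3 and 13.3 CPM in their control cells. Prim1 in mice 5 to 8 stood at 37.1, 24.2, 48.5 and 30.6 CPM in clones, against 24.2, 23.6, 30.9 and 23.3 CPM in control cells. Clones were higher in 7 of 8 mice, the ranges overlapped at both times, and the log2 difference over both times was 0.84 ± 0.22 (SE; edgeR adjusted p = 0.0909) without the block and 0.78 ± 0.18 (edgeR adjusted p = 0.00981) with it. The blocked call was kept with 7 of the 8 mice left out in turn and lost without mouse 2 (edgeR adjusted p = 0.333).

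Of the helicase ring, Mcm7, Mcm5, Mcm4 and Mcm3 were called with the block, and Mcm2 and Mcm6 were not. Mcm7 stood at 79.2, 86.6, 85.2 and 55.3 CPM in the clones of mice 1 to 4, against 59.4, 38.2, 60.8 and 41.2 CPM in their control cells. Mcm7 in mice 5 to 8 stood at 62.2, 49.8, 79.3 and 62.9 CPM in clones, against 48.1, 46.8, 57.9 and 37.8 CPM in control cells. Mcm7 was higher in the clones of 8 of 8 mice although the ranges overlapped, and its difference over both times was 0.54 ± 0.15 (edgeR adjusted p = 0.104) without and 0.55 ± 0.14 (0.0177) with the block. Its exons overlap Mir25 and Mir93 on the same strand and Ap4m1 and Cops6 on the other, and whether the counting used strand is not stated in the sources used here. Mcm5 stood at 45.3, 78.7, 50.5 and 39.5 CPM in the clones of mice 1 to 4, against 30.2, 21.5, 40.7 and 18.1 CPM in their control cells. Mcm5 in mice 5 to 8 stood at 30.4, 16.1, 40.2 and 31.8 CPM in clones, against 23.0, 15.6, 34.7 and 24.4 CPM in control cells. Mcm5 too was higher in the clones of 8 of 8 mice, by 0.70 ± 0.23 without the block (edgeR adjusted p = 0.156) and 0.65 ± 0.17 with it (0.0214). Mcm4 stood at 34.0, 82.6, 59.9 and 71.1 CPM in the clones of mice 1 to 4, against 44.6, 29.5, 47.4 and 34.2 CPM in their control cells. Mcm4 in mice 5 to 8 stood at 32.8, 22.9, 42.8 and 39.0 CPM in clones, against 24.8, 23.98, 36.9 and 23.96 CPM in control cells. Mcm4 was higher in the clones of 6 of 8 mice, with 0.57 ± 0.17 without the block (edgeR adjusted p = 0.126) and 0.56 ± 0.16 with it (0.0373). Mcm3 stood at 45.3, 94.5, 47.3 and 31.6 CPM in the clones of mice 1 to 4, against 37.9, 22.8, 52.6 and 32.6 CPM in their control cells. Mcm3 in mice 5 to 8 stood at 43.1, 29.6, 56.3 and 38.4 CPM in clones, against 30.6, 21.2, 40.2 and 22.4 CPM in control cells. Mcm3 was likewise higher in 6 of 8 mice, with 0.64 ± 0.22 without the block (edgeR adjusted p = 0.172) and 0.62 ± 0.18 with it (0.0463).

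Mcm2 stood at 45.3, 70.8, 34.7 and 23.7 CPM in the clones of mice 1 to 4, against 26.3, 30.2, 28.1 and 16.8 CPM in their control cells. Mcm2 in mice 5 to 8 stood at 21.8, 18.8, 32.9 and 26.2 CPM in clones, against 21.6, 13.2, 27.0 and 17.1 CPM in control cells. Clones exceeded control cells in 8 of 8 mice, while the test gave 0.62 ± 0.21 over both times (edgeR adjusted p = 0.160, and 0.078 with the block). Mcm6 stood at 90.5, 150, 47.3 and 79.0 CPM in the clones of mice 1 to 4, against 60.4, 54.3, 68.4 and 43.7 CPM in their control cells. Mcm6 in mice 5 to 8 stood at 64.6, 43.0, 105 and 74.9 CPM in clones, against 57.3, 38.8, 56.8 and 37.1 CPM in control cells. Mcm6 was higher in 7 of 8 mice, and mouse 2 had the largest gap. Its difference over both times was 0.66 ± 0.22 (edgeR adjusted p = 0.162, and 0.108 with the block).

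The loading factors had few UMIs per library. Cdc6 stood at 0, 31.5, 25.2 and 7.90 CPM in the clones of mice 1 to 4, against 9.31, 6.70, 16.6 and 11.4 CPM in their control cells. Cdc6 in mice 5 to 8 stood at 7.00, 9.41, 15.7 and 14.4 CPM in clones, against 7.41, 4.396, 14.9 and 7.55 CPM in control cells. Cdc6 had no UMI in the clones of mouse 1, where 1 UMI was worth 11.3 CPM, so that a level of up to 34 CPM (3 UMIs) was not detectable. Cdt1 stood at 67.9, 43.3, 25.2 and 7.90 CPM in the clones of mice 1 to 4, against 17.7, 8.72, 25.1 and 12.04 CPM in their control cells. Cdt1 in mice 5 to 8 stood at 25.6, 17.5, 26.6 and 24.1 CPM in clones, against 18.6, 15.2, 26.5 and 11.0 CPM in control cells. Cdt1 was higher in the clones of 7 of 8 mice and ranges overlapped at both times. The differences over both times were 0.74 ± 0.34 for Cdc6 and 0.75 ± 0.28 for Cdt1, neither called.

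Of the helicase activators, Cdc45 stood at 0, 7.87, 3.15 and 0 CPM in the clones of mice 1 to 4, against 8.67, 6.70, 12.1 and 6.02 CPM in their control cells. Cdc45 in mice 5 to 8 stood at 7.81, 2.69, 11.5 and 10.0 CPM in clones, against 6.81, 2.40, 12.7 and 8.85 CPM in control cells. The clones of mice 1 and 4 had no Cdc45 UMI, at depths where 3 UMIs were worth 34 and 23.7 CPM, so the difference at 48 h (-1.16 ± 0.90) rests on few UMIs. Gins2 stood at 22.6, 43.3, 18.9 and 15.8 CPM in the clones of mice 1 to 4, against 26.0, 20.1, 24.6 and 14.3 CPM in their control cells. Gins2 in mice 5 to 8 stood at 22.3, 26.9, 24.5 and 26.2 CPM in clones, against 20.4, 12.4, 21.5 and 16.4 CPM in control cells. Gins2 at 72 h was the 1 gene of the 31 whose 4 clone values lay above the 4 control values at a time, against 2.57% of all genes at 72 h. Its difference there was 0.49 ± 0.22 (unadjusted p = 0.0377 in edgeR, adjusted p = 0.628).

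Pcna, Fen1 and Lig1, the clamp, flap endonuclease and ligase, were not called with or without the block. Pcna stood at 136, 138, 117 and 79.0 CPM in the clones of mice 1 to 4, against 129, 83.8, 139 and 98.8 CPM in their control cells. Pcna in mice 5 to 8 stood at 109, 75.3, 144 and 125 CPM in clones, against 97.9, 61.1, 119 and 91.7 CPM in control cells. Pcna was higher in clones in 2 of 4 mice at 48 h and in 4 of 4 at 72 h, with overlapping ranges. Fen1 stood at 22.6, 43.3, 12.62 and 47.4 CPM in the clones of mice 1 to 4, against 35.004, 20.8, 33.1 and 21.9 CPM in their control cells. Fen1 in mice 5 to 8 stood at 24.2, 6.72, 26.1 and 31.7 CPM in clones, against 16.6, 10.8, 29.2 and 20.3 CPM in control cells. Fen1 differed by 0.24 ± 0.32 over both times, and the sign turned in some fits without 1 mouse. Lig1 stood at 113, 82.6, 72.6 and 86.9 CPM in the clones of mice 1 to 4, against 69.7, 51.6, 73.3 and 42.1 CPM in their control cells. Lig1 in mice 5 to 8 stood at 65.1, 52.5, 83.5 and 79.8 CPM in clones, against 59.3, 39.2, 71.1 and 49.9 CPM in control cells. Lig1, the ligase that seals Okazaki fragments, was higher in the clones of 7 of 8 mice, by 0.44 ± 0.17 over both times (edgeR adjusted p = 0.194, and 0.0664 with the block).

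Nucleotide supply and histone message genes were not called with or without the block. Rrm2 stood at 0, 27.6, 12.62 and 0 CPM in the clones of mice 1 to 4, against 22.5, 7.38, 23.8 and 15.8 CPM in their control cells. Rrm2 in mice 5 to 8 stood at 15.6, 9.41, 13.6 and 16.46 CPM in clones, against 12.61, 4.396, 18.7 and 17.5 CPM in control cells. Rrm2 was higher in clones in 3 of 8 mice, with 2 clone libraries without a UMI. Tyms stood at 67.9, 55.1, 66.2 and 15.8 CPM in the clones of mice 1 to 4, against 73.9, 60.3, 67.4 and 46.6 CPM in their control cells. Tyms in mice 5 to 8 stood at 58.4, 51.1, 53.2 and 65.4 CPM in clones, against 51.7, 44.0, 70.5 and 57.6 CPM in control cells. Each 48 h mouse had less Tyms in its clones (4 of 4), and 3 of the 4 mice at 72 h had more. Slbp stood at 34.0, 94.5, 59.9 and 55.3 CPM in the clones of mice 1 to 4, against 70.0, 61.0, 88.5 and 58.3 CPM in their control cells. Slbp in mice 5 to 8 stood at 64.6, 61.9, 74.1 and 75.5 CPM in clones, against 67.5, 54.8, 76.6 and 73.4 CPM in control cells. Slbp differed by -0.01 ± 0.14 over both times, and the ranges overlapped. The sign of Rrm2, Tyms and Slbp changed with the scaling or the cell filter, so no direction is given for them.

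Of the genes that couple DNA methylation to replication, Hells was called with the block and Uhrf1 was not. Uhrf1 stood at 45.3, 55.1, 59.9 and 7.90 CPM in the clones of mice 1 to 4, against 36.9, 20.8, 43.3 and 28.8 CPM in their control cells. Uhrf1 in mice 5 to 8 stood at 33.1, 14.8, 55.3 and 41.2 CPM in clones, against 28.6, 13.99, 38.6 and 21.4 CPM in control cells. Uhrf1, which reads hemimethylated DNA, was higher in the clones of 7 of 8 mice, by 0.54 ± 0.32 (edgeR adjusted p = 0.426, and 0.133 with the block). Hells stood at 147, 161, 104 and 150 CPM in the clones of mice 1 to 4, against 120, 69.7, 108 and 58.3 CPM in their control cells. Hells in mice 5 to 8 stood at 88.3, 45.7, 146 and 112 CPM in clones, against 77.1, 46.8, 74.9 and 58.3 CPM in control cells. Hells was higher in the clones of 6 of 8 mice, by 0.61 ± 0.22 over both times without the block (edgeR adjusted p = 0.194) and 0.60 ± 0.15 with it (0.0245). In mice 3 and 6 the clones lay below the control cells.

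Cyclin E and E2f1 start the transition itself and were not called with or without the block. Ccne1 stood at 0, 11.8, 15.8 and 0 CPM in the clones of mice 1 to 4, against 8.67, 6.03, 10.52 and 9.82 CPM in their control cells. Ccne1 in mice 5 to 8 stood at 4.04, 6.72, 6.78 and 9.56 CPM in clones, against 6.01, 1.599, 8.27 and 9.28 CPM in control cells. Ccne1 was higher in clones in 4 of 8 mice. Ccne2 stood at 0, 7.87, 12.62 and 0 CPM in the clones of mice 1 to 4, against 9.96, 10.1, 10.9 and 12.04 CPM in their control cells. Ccne2 in mice 5 to 8 stood at 5.38, 8.07, 9.39 and 12.7 CPM in clones, against 8.61, 4.396, 5.51 and 6.69 CPM in control cells. Both cyclin genes had 2 clone libraries without a UMI, and their differences over both times were 0.17 ± 0.40 and -0.06 ± 0.34. E2f1 stood at 11.3, 23.6, 9.46 and 0 CPM in the clones of mice 1 to 4, against 5.14, 4.69, 7.60 and 5.70 CPM in their control cells. E2f1 in mice 5 to 8 stood at 6.46, 6.72, 9.91 and 9.56 CPM in clones, against 6.61, 4.80, 6.06 and 5.40 CPM in control cells. E2f1 was higher in the clones of 6 of 8 mice, by 0.81 ± 0.31 over both times (edgeR adjusted p = 0.194). The 9 genes not given by mouse lay between 0.10 (Rrm1) and 0.57 (Rpa2) over both times on the log2 scale, and none was called. They are Rrm1, Rpa2, Mcm10, Dut, Pola1, Pole, Rfc2, Rfc4 and Chaf1b. Chaf1b, a subunit of the chromatin assembly factor, had 0.91 ± 0.31 at 72 h (unadjusted p = 0.00774 in edgeR, adjusted p = 0.533).

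The class levels and the gate differences were set side by side. Over the 31 genes, Pearson's r between the log2 ratio of the Slfn9-Dtl cluster to dividing cells and the log2 difference of clones minus control over both times was 0.596 and Spearman's rho was 0.654. In the 14 genes with a ratio over 2, the difference had a median of 0.62 (-0.06 to 0.81), and in the other 17 it had a median of 0.20 (-0.44 to 0.84). Both measures come from the same cells and genes are not independent replicates, so this is a description, computed after the values of each had been seen.

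Tracing time was compared within each gate, 72 h against 48 h, in different mice. Of the 31 genes 0 were called in clones (0% of all genes) and 0 in control cells (0%), and 0 in the change of the clone-control difference between the times (0%; 0 also with the block, 0.0283%). At an unadjusted p under 0.05, 3 were lower at 72 h in clones (Mcm2, Mcm4 and Mcm5), 3 were lower in control cells (Ccne2, Mcm4 and Chaf1b) and 0 changed in the difference. The background of genes lower by that rule was 1.83% in clones and 1.96% in control cells. DESeq2 called 0 in each of these contrasts (0.00943%, 0.179% and 0.0189% of genes called). The median log2 difference of 72 h minus 48 h was -0.27 in clones and -0.25 in control cells. In control cells 28 of 31 genes were below 0, against 5539 of all 10606 genes tested. Mcm4 had the lowest p in both gates, with 34.4 ± 8.7 CPM at 72 h and 61.9 ± 20.8 at 48 h in clones (-0.88 ± 0.28, edgeR adjusted p = 0.762). In control cells Mcm4 had 27.4 ± 6.3 CPM at 72 h and 38.9 ± 8.5 at 48 h (-0.56 ± 0.20, edgeR adjusted p = 0.890). Without mouse 2 the median for clones was 0.07. Fitted within 1 pool, the clone median was 0.26 in pool 1 and -0.65 in pool 2, so its sign differed between pools. For control cells it was -0.39 in pool 1 and -0.13 in pool 2. The median change of the clone-control difference was 0.45 in pool 1 and -0.59 in pool 2.

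Within classes the gates and times could be compared only where at least 3 sums per group held at least 10 cells, which no class of the 48 h clones did. In stem cells at 72 h, 18 of the 31 genes were tested, 0 were called (0% of genes), and 7 were higher in clones at an unadjusted p under 0.05 (background 2.2%). These were Mcm6 (0.79 ± 0.26), Rfc4 (1.03 ± 0.37), Hells (0.83 ± 0.32), Cdt1 (1.05 ± 0.48), Lig1 (0.57 ± 0.27), Pcna (0.69 ± 0.32) and Prim1 (0.69 ± 0.34), with an edgeR adjusted p of 1 for each. The median of the 18 genes was 0.52 (0.25 with the mouse as a block). Stem cell sums of the 31 genes were 773, 433, 1281 and 1301 UPM in clones of mice 5 to 8, against 891, 630 and 871 in control cells of mice 5 to 7. Clones were thus below control cells in mice 5 and 6 and above them in mouse 7. These stem cells came from clusters 6 and 12, with 119 and 43 clone cells and 62 and 41 control cells at 72 h.

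In dividing cells at 72 h, 30 genes were tested, 0 were called (0% of genes) and 0 had an unadjusted p under 0.05 (3.06% of genes were higher by that rule). Their median was 0.13, -0.23 without mouse 8 and 0.67 without mouse 5, when Pcna was called. With the mouse as a block it was -0.001. The dividing sums were 1607, 1494 and 2150 UPM in the clones of mice 5, 7 and 8, against 1443, 1074, 2045 and 2253 in control cells of mice 5 to 8. The histone cluster gave 82 of the dividing clone cells and 62 of the control cells at 72 h, and the Cdc20 cluster 67 and 54.

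Between times in control cells, 0 genes of the set were called in stem cells (0.122% of genes called), dividing cells (0%), secretory progenitors (0.0138%) or goblet cells (0%). At an unadjusted p under 0.05, 4 genes were lower at 72 h in stem cells (background 3.99%), 1 was higher in dividing cells (5.96%) and 6 were higher in secretory progenitors (2.29%). In stem cells the median of 72 h minus 48 h was -0.48 over 18 genes, and Mcm4 had -1.44 ± 0.43 (edgeR adjusted p = 0.209). Without mouse 7, Mcm4 was called there. In secretory progenitors it was 0.37 over 25 genes, of which Cdt1 (1.502 ± 0.56) had the lowest p (0.0118 unadjusted in edgeR, 0.991 adjusted). Without mouse 8 this median was -0.0006, so its sign rested on that mouse. In goblet cells 3 genes passed the filter on low counts, and in clones at 72 h as well 0 of 3 were called.

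Genes that work beside the 31 were counted in the same fits. Of 60 other replication and S phase genes, 59 were tested and 0 were called without the block, with median differences of 0.02 at 48 h, 0.22 at 72 h and 0.14 over both times. The most abundant were Rfc1 (-0.08 ± 0.13 over both times), Cdca7 (0.87 ± 0.16) and Nasp (0.29 ± 0.14). With the block 2 were called over both times, Cdca7 higher by 0.87 ± 0.12 (edgeR adjusted p = 3.364e-05) and E2f7 lower. Cdca7, a Hells partner that also stands in the stem marker list, was at 226, 224, 117 and 182 CPM in the clones of mice 1 to 4, against 94.4, 105, 103 and 90.6 in their control cells, and was called at 48 h and at 72 h too. E2f7, an E2F repressor, had no UMI in the clones of mice 1 to 4, where 3 UMIs were worth 9.46 to 34 CPM, against 4.69 to 9.55 CPM in their control cells. Within mouse 1, 2 or 4 alone a difference of this size was not detectable. In mouse 3 the control level of 9.55 CPM lay just above the 9.46 CPM that 3 UMIs were worth in its clones. The blocked call used the sums of all mice, for which no such limit was worked out, and the fitted value is not given. DESeq2 also called Msh6 (0.56) and Ung (0.75), repair genes, higher over both times.

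Mitosis and G2/M genes were followed as the genes of the next phase. Of the 32 genes of that list 0 were called in the 6 contrasts without the block or in the 4 that can be blocked. Over the 32 genes the median difference of clones minus control was -0.67 at 48 h, where 2 were above 0, and 0.15 at 72 h, where 28 were. Its summed level was 1795 ± 1353 UPM in clones and 3304 ± 1162 in control cells at 48 h, and 2960 ± 861 in clones and 2673 ± 722 in control cells at 72 h, higher in the clones of 3 of 8 mice. Mki67, a proliferation marker, had -0.94 ± 0.51 at 48 h, Top2a, a topoisomerase, -0.95 ± 0.55, and Hmgb2, a chromatin protein, -0.58 ± 0.30. The difference between the lists was not tested.

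**Figure D5:**
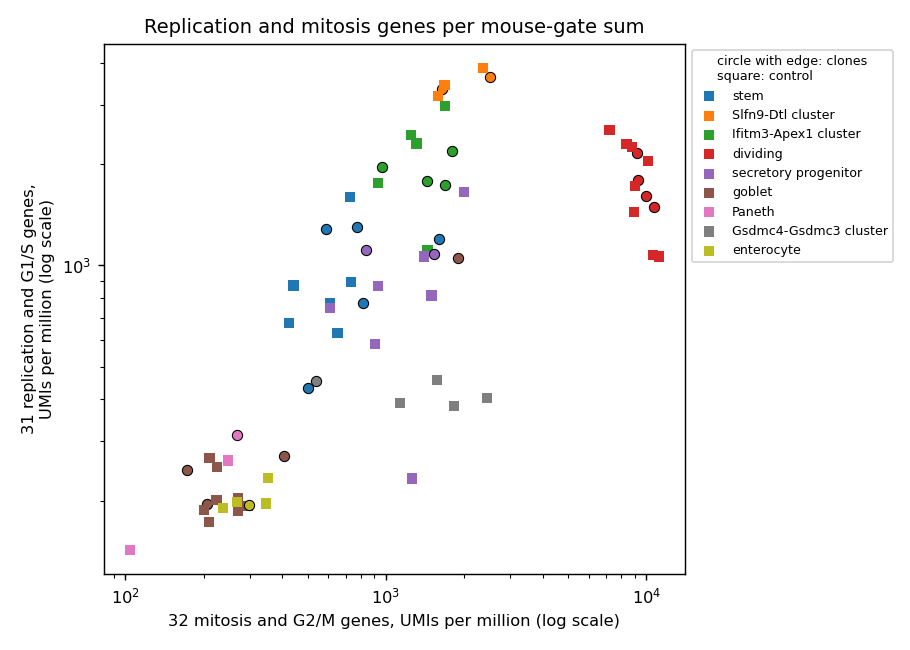
Summed level of the 31 genes (UMIs per 1000000 UMIs) against that of 32 mitosis and G2/M genes, on logarithmic axes. Each point is 1 class of cells in 1 gate of 1 mouse, for sums of at least 10 cells. Of the 48 h clones, only those of mouse 3 gave such sums. Their mitosis genes ran from 1595 UPM (stem cells) to 9306 UPM (dividing cells). Their replication genes ran from 1050 UPM (goblet cells) to 2191 UPM (Ifitm3-Apex1 cluster).

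Upstream of cyclin E, 15 cyclin D and CDK inhibitor genes were followed, of which 14 were tested and 0 were called without the block. With the block, over both times, Cdk4 (0.54 ± 0.12, edgeR adjusted p = 0.00575) and Cdk6 (0.63 ± 0.14, 0.0056), the kinases that bind cyclin D, were higher in clones, and Ccnd2, a cyclin D, was lower (-0.38 ± 0.10, 0.0205). Cdkn2b, an inhibitor of these kinases, was lower at 72 h (-1.24 ± 0.21, 0.00314), at 21.3, 13.4, 24.0 and 49.2 CPM in the clones of mice 5 to 8, against 73.7, 31.2, 53.5 and 78.8 in their control cells. Clones were below control cells in 4 of these 4 mice. DESeq2 called Cdkn1a, another inhibitor, lower at 72 h (-0.86). The list holds kinases and cyclins as well as inhibitors, and some further calls were of genes higher in clones, not named here. Of the 14 genes, 1 was called higher at 72 h with the block, and DESeq2 called 1 higher at 48 h and 1 over both times. Ccnd1, the other abundant cyclin of the list, had 0.05 ± 0.13 over both times.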

How the data were processed

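Distal small-intestinal epithelium of 8 mice was sequenced in 2 hashtagged pools. Per the file headers and the submitters' processing notes, the authors ran Cell Ranger 6.1.2 on mm10, and the deposited matrices hold raw integer counts (UMIs per gene, and antibody counts per hashtag). Identifiers and barcodes were deposited as other, non-numeric values. Cell filters and the use of strand are not given in the sources used here.

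HTODemux (Seurat 5.3.0, quantile 0.99) assigned hashtags. Of 4029 barcodes with 1 hashtag, 1993 (49.5%) passed minima of 1000 UMIs and 500 genes and stayed below 20% mitochondrial UMIs. Clustering used log values scaled to 10000 and scanpy 1.11.5 under python 3.11.15 (2000 variable genes without the 31 members, 30 components, 15 neighbours, Leiden resolution 1.0). A name needed 3 markers of its list among the 50 leading genes and 25% of the list raised. Dividing secretory cells met this for the dividing list only. Their second name needed 50% of the secretory progenitor list raised, without a count of leading genes, and 58.3% was raised. Clusters that met none are called by their first 2 leading genes outside the 31. Hashtag multiplets were removed. Scrublet called 2 barcodes (0.04%) and so was not used.

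UMIs were summed by mouse and gate, the mouse being the replicate. Sums were tested two-sided with edgeR 4.0.16 in R 4.3.3 (filterByExpr, TMM, quasi-likelihood, pool as covariate, Benjamini-Hochberg over all genes tested). Alternatives were the mouse as replicate block, DESeq2 1.42.0, other size factors, no low-count filter, other hashtag and mitochondrial limits, other clusterings and each mouse left out. Clone and control cells of a mouse are paired because they come from 1 animal, and the residuals of their sums correlated by 0.017 to 0.431 across genes. Clones and control cells of a mouse lie in different pools, each gate and time having 2 mice per pool. Times lie in different mice and cannot be blocked. On counts simulated from these sums, the unblocked fit over both times recovered 66% of log2 changes of 1 and 93% of changes of 2. It made 8 false calls among 10572 genes. Recovery was 31% and 77.6% at 48 h alone, and 61% and 95% at 72 h alone. The simulation held no mouse or pool effect and no change below 1, so recovery of smaller differences is not known.

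UMIs from 3' ends do not allow levels of different genes to be compared. Limits from few UMIs cover counting error only. Values by mouse are given for 17 members chosen by role and for members called in any fit. Other lists are named by called genes and their 3 most abundant genes. The members, lists and tests were chosen with earlier results of these data known. Promoters are from RefSeq and positions from GENCODE M21, in which all 31 identifiers matched.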

Additional observations from a re-analysis of the deposited data

Results flagged for a closer look

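Of 92 groups of 4 mouse values (CPM of the genes given by mouse and their summed level), 2 (2.17%) held a value far from the other 3 by Dixon's ratio, where chance gives about 1 in 20. Both were in the control cells of mouse 7 at 72 h. Prim1 stood there at 30.86 CPM, against 23.3, 23.6 and 24.2 CPM in the control cells of the other 72 h mice. Mcm4 stood at 36.92 CPM, against 24, 24 and 24.8 CPM. The gap made up 0.879 of the group's range for Prim1 and 0.933 for Mcm4. The clones of mouse 7 had 48.5 CPM of Prim1 and 42.8 CPM of Mcm4, above their own control cells for both genes.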

How the results depend on the processing

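Counts of the 31 genes called between clones and control cells moved with the processing. Over both times the count was 0 in the fit without a block, 6 with the replicate block, 3 with DESeq2, 9 without the low-count filter, 5 with a mitochondrial limit of 10% and 1 with 50%. With the replicate block and a second change, chosen after seeing the data, it was 9 (top hashtag of at least 70%), 10 (10% limit) and 9 (50% limit). At 48 h it was 2 without the low-count filter, 2 with block and top hashtag and 4 with block and 10% limit, and at 72 h it was 3 without the filter. Leaving out 1 mouse, with or without the block, gave 0 to 3 at 48 h, 0 to 4 at 72 h and 0 to 10 over both times. Within classes it gave 0 to 1 for stem control cells between times and for dividing cells at 72 h. The block changed no other call on the 31 genes. Fits within 1 pool, added after seeing the data, called 0 in all 6 contrasts. All genes called over both times went from 1 to 495 with the block and to 234 with DESeq2. For the other settings the number over all genes is not given here. Their counts are therefore not read as particular to the 31 genes. The cause of these moves was not tested.

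Of the 31 genes, 9 changed sign over both times in some of 24 settings. Tyms was at 0.113, 0.0725 and 0.0269 on the log2 scale with the top hashtag and the 10% and 50% limits, and Rrm2 at 0.0567 and 0.0269 with the 2 limits. Slbp was at 0.0181 with DESeq2 size factors, at 0.0209 with DESeq2, and at 0.0686, 0.115 and 0.130 with the top hashtag and the 2 limits. Ccne2 was at 0.43 with the 10% limit. With 1 mouse left out, Mcm10 ranged from -0.0743 to 0.30, Rrm1 from -0.12 to 0.22, Rrm2 from -0.64 to 0.21, Slbp from -0.26 to 0.0845, Pola1 from -0.0288 to 0.40, Fen1 from -0.0395 to 0.53, Ccne1 from -0.20 to 0.45 and Ccne2 from -0.47 to 0.22.

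Class levels depended on the clustering in stem cells, at 1338 UPM with all 4 gene lists left out and 1908 at resolution 0.6, and in enterocytes, at 294.3 and 278.1. With the 10% limit Paneth cells were at 150.6 and enterocytes at 222.0 UPM. With 1 mouse left out the level of dividing secretory cells was 2056 to 2324. Removing cells called by Scrublet was not run. At 4000 UMIs per cell the 9 class values compared moved by less than their spread. The 48 h clones, at 77566 to 298850 UMIs per mouse, limit what single genes can show.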
